A study of Mus musculus with 14 samples.

Results

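The BCL2 family apoptosis regulators described here were 10 genes of the 35275 in the expression table of mouse KMF ovarian tumor cells, taken by their symbols, and each symbol matched 1 row. They were the anti-apoptotic genes Bcl2, Bcl2l1 (BCL-XL) and Mcl1, the effectors Bax and Bak1, and the BH3-only genes Bcl2l11 (BIM), Bbc3 (PUMA), Pmaip1 (NOXA), Bid and Bad. Levels are FPKM, fragment counts scaled to gene length and to the depth of each sample, so they are per length and can be compared between genes.

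KMF cells, of C57Bl6 strain, descend from ID8 ovarian tumor cells that were passaged in mice. The study compared lines with and without focal adhesion kinase (FAK, gene Ptk2) or active β-catenin, all grown untreated and without anchorage as tumorspheres in PromoCell XF medium for 5 days. Poly(A) RNA was sequenced from 3 samples of KMF cells, 3 of FAK KO cells, 3 of FAK-WT cells, 2 of FAK-R454 cells and 3 of β-catenin ΔGSK cells. The design describes triplicates, and the third FAK-R454 sample was not analysed here. FAK KO cells are KT13, a single FAK-/- clone of KMF made with CRISPR, so the clone and the loss of FAK cannot be told apart. The other 3 lines were made from KT13 and so all lack endogenous FAK. Each construct is represented by a single line, and no line with an empty vector is among the samples. A construct and its line thus cannot be told apart. FAK-WT cells express lentiviral GFP-FAK and FAK-R454 cells express kinase-inactive GFP-FAK-R454, in both cases from a CMV promoter, and β-catenin ΔGSK cells express β-catenin lacking its GSK3β phosphorylation sites from an MSCV vector. The paper describes the KMF samples as independent RNA isolations at various passages, and those of KT13 and the lines made from it only as replicates. The p-values thus measure the spread between these samples, which may be technical. Whether KMF cells and the other lines were collected together is not stated. In comparisons with KMF, any difference in passage or collection cannot be told apart from the line.

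Between 25390558 and 35289859 fragments were counted per sample, and the Pearson correlation of log2 levels across genes was at least 0.988 between samples of a line. Ptk2 averaged 24.3 FPKM for KMF, 19.0 for FAK KO, 43.4 for FAK-WT, 62.4 for FAK-R454 and 15.5 for β-catenin ΔGSK cells, and the mRNA of an edited gene can persist when its protein is lost. Ctnnb1, the β-catenin gene, averaged 214 FPKM in β-catenin ΔGSK and 145 in FAK KO cells. Of 12 ovarian surface epithelium markers, 7 or 8 averaged above 1 FPKM in each line, and the 12 summed to 1577 to 1822 FPKM in FAK-WT and 1081 to 1412 in the other lines. The 6 measured leukocyte markers summed to at most 0.345 FPKM in any sample. The 6 fibroblast and stromal markers summed to 30.8 to 45.1 FPKM in β-catenin ΔGSK, 41.8 to 49.8 in KMF and 90.0 to 145 in the remaining lines, and the 4 endothelial markers to 6.55 to 7.42 in β-catenin ΔGSK and 17.1 to 29.95 elsewhere. The endothelial sum was thus lowest in β-catenin ΔGSK, the line in which Bcl2l11 is high, and the epithelial sum highest in FAK-WT. The stromal sum was low in both β-catenin ΔGSK and KMF, whose samples overlapped. The part of these sums in the results was not tested.

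BCL2 family proteins decide whether the outer mitochondrial membrane is opened during the intrinsic pathway of apoptosis. BAX and BAK form the pores that release cytochrome c, BCL2, BCL-XL and MCL1 hold them in check, and BH3-only proteins either block these guardians or activate the effectors directly. In ovarian cancer the balance of these groups is studied because platinum drugs kill through this pathway, and much of its control acts on protein stability and phosphorylation, which mRNA levels do not show.

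Bcl2l11 and Bcl2 were both higher in β-catenin ΔGSK than in FAK KO cells, and their promoter sequences are shown because the line carries an active form of a transcriptional coactivator that acts through TCF/LEF factors. The windows are the 250 bases before a RefSeq transcription start, read 5′ to 3′ on the gene's strand in GRCm38.p6, and none overlaps an annotated exon. Capitals mark 3 motifs searched on both strands, the GC box GGGCGG bound by SP factors, the CCAAT box and the FoxO motif GTAAACA. The upstream Bcl2l11 window is chr2:128125788-128126037 and the downstream one chr2:128127325-128127574, both on the plus strand, and the Bcl2 window is chr1:106714291-106714540 on the minus strand.
Bcl2l11 upstream start: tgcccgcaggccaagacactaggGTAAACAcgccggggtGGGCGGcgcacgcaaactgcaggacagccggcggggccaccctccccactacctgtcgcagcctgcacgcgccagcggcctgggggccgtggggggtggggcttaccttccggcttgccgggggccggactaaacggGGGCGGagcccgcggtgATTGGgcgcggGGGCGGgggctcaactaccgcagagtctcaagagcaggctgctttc
Bcl2l11 downstream start: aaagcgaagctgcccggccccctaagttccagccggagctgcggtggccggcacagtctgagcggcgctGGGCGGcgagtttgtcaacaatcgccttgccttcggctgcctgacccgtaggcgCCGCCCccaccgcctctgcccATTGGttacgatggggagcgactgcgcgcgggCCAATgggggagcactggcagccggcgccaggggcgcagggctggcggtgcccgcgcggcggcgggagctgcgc
Bcl2 start: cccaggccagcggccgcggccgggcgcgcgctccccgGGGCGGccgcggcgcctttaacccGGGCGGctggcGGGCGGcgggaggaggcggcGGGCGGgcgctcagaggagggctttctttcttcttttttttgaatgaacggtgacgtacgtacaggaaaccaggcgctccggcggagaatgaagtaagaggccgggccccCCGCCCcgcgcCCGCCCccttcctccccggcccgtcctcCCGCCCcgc
The upstream Bcl2l11 window held 3 GC boxes, 1 CCAAT box and 1 FoxO motif, and the downstream one held 2 GC boxes and 2 CCAAT boxes. The Bcl2 window held 7 GC boxes. No motif overlapped another kind. Of 32851 mouse promoter windows of the same length, 32.7% held a GC box, 33.8% a CCAAT box and 3.17% the FoxO motif. The TCF/LEF motif, searched on both strands as the letters CTTTG followed by a pair of bases that are each A or T and present in 14.8% of windows, was not in these 3 windows. Of the other 2 genes called higher in β-catenin ΔGSK than in FAK KO cells, Bax held 1 TCF/LEF motif in its window, and Bak1 none in a window that lies within an annotated exon. Bcl2l1 and Bbc3 were not called in that comparison, yet 1 Bcl2l1 window held 1 TCF/LEF motif and 1 Bbc3 window held 1 FoxO motif. GC content was 72% and 73.2% in the Bcl2l11 windows and 74.8% in the Bcl2 window, with a median of 52.4% over all windows.

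In outline, Bcl2l11 mRNA stood 2.99-fold higher in β-catenin ΔGSK than in FAK KO cells, and Bak1 was higher than in FAK KO cells in all 4 other lines. Pmaip1 was highest in parental KMF cells and lowest in the FAK-WT and FAK-R454 lines. Mcl1 and Bcl2l1, the abundant guardians, were not called between any pair of FAK KO cells and the 3 lines made from them. The plot of FPKM by sample shows these patterns. Differences below are log2 fold changes of FPKM + 0.1 from limma, with Benjamini-Hochberg adjusted p over all genes tested, and a gene is called at an adjusted p under 0.05. In bulk RNA, fewer cells making a transcript and less of it per cell cannot be told apart.

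**Figure D1:**
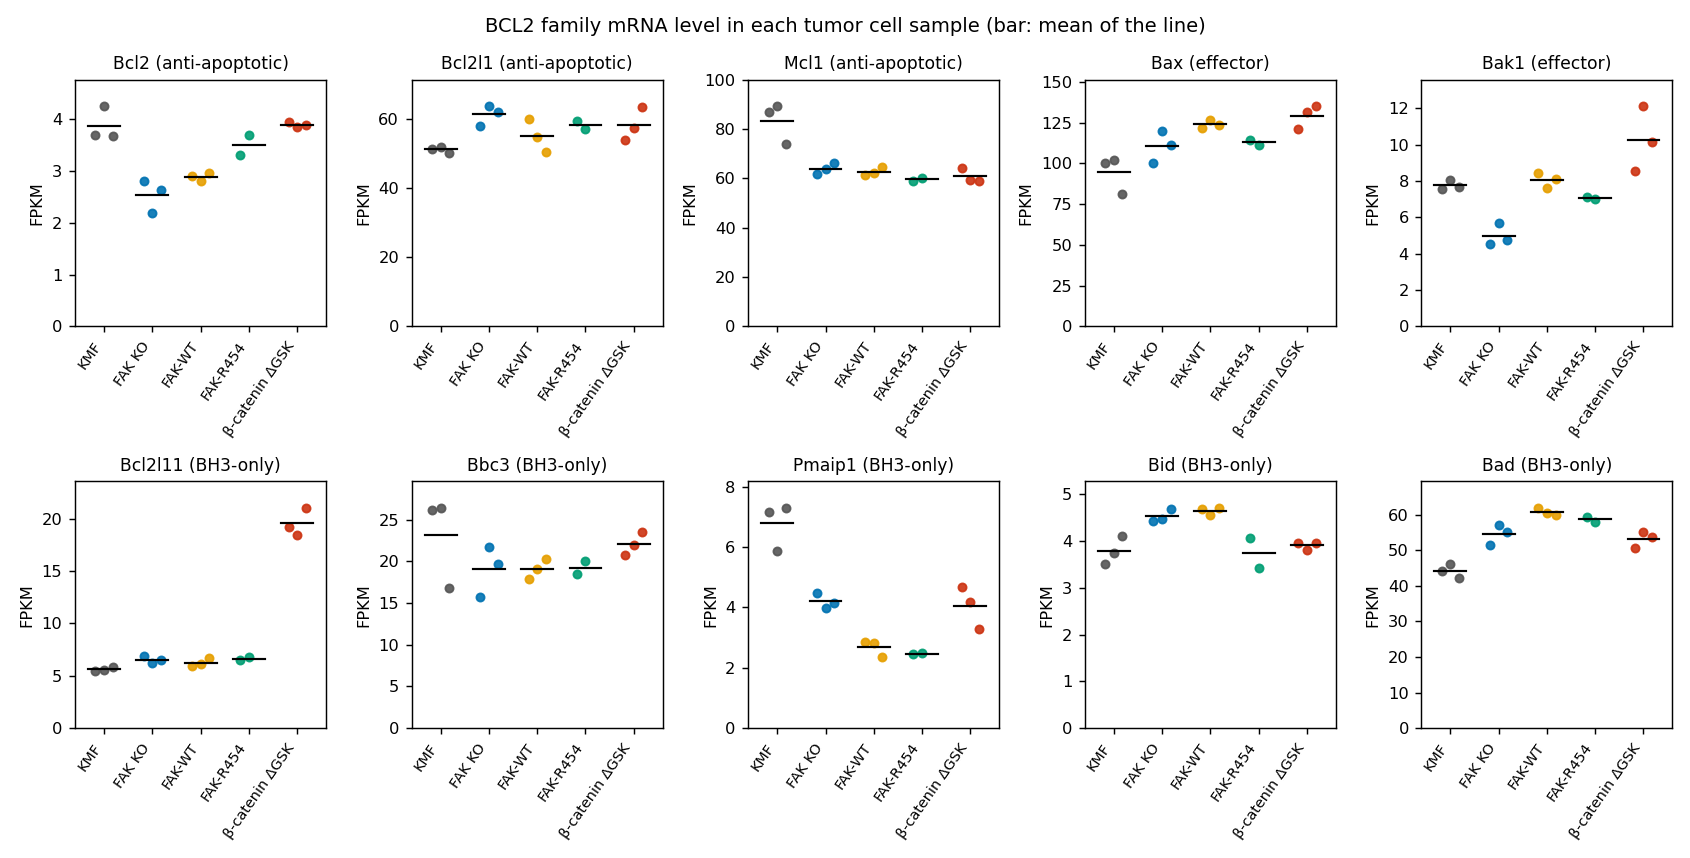
FPKM (vertical axes, from 0) of the 10 genes in each of the 14 samples, grouped by line, where points are samples and bars are line means. Bcl2l11 lies between 18.4 and 21.0 FPKM in β-catenin ΔGSK cells and between 5.43 and 6.93 in the other lines, and Bak1 is lowest in FAK KO cells.

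Among the anti-apoptotic genes, Mcl1 (chr3:95658721-95663176), whose short-lived product binds BIM, NOXA and BAK, was the most abundant. It measured 86.9, 89.3 and 74.0 FPKM in KMF, 61.7, 63.9 and 66.4 in FAK KO, and 61.4, 62.2 and 64.7 in FAK-WT samples. The FAK-R454 samples measured 59.0 and 60.2 and the β-catenin ΔGSK samples 64.4, 59.6 and 59.0. The 3 KMF samples lay above all others, and the remaining lines fell between 59.0 and 66.4. Mcl1 was 0.38 higher in KMF than in FAK KO cells (SE 0.08, adjusted p = 0.00484). The median tested gene of chromosome 3 was 0.21 higher in the same comparison, the 6 nearest tested genes had a median of 0.40, and with each chromosome centred on its median the Mcl1 difference was 0.14 (adjusted p = 0.223). Below KMF, the order of lines was FAK KO, FAK-WT, β-catenin ΔGSK and FAK-R454, and no neighbouring pair of these was called (adjusted p between 0.597 and 0.731).

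Bcl2l1 (chr2:152780668-152831728), which encodes BCL-XL, ranged only from 50.3 to 63.7 FPKM over all 14 samples. KMF samples measured 51.4, 51.9 and 50.3 FPKM and FAK KO samples 58.0, 63.7 and 62.1. The lines did not overlap, and Bcl2l1 was 0.26 lower in KMF (log2 fold change -0.26, SE 0.06, adjusted p = 0.00740). Line means ran from 61.3 FPKM in FAK KO through 58.3 in FAK-R454, 58.2 in β-catenin ΔGSK and 55.04 in FAK-WT to 51.2 in KMF cells, and no neighbours in that order were called. The 95% interval of the difference of β-catenin ΔGSK from FAK KO cells ran from -0.25 to 0.10.

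Bcl2 (chr1:106538178-106714274), the founding member of the family, was the rarest of the 3, with 409 to 931 fragments per sample. It measured 2.80, 2.18 and 2.64 FPKM in FAK KO and 2.90, 2.81 and 2.96 in FAK-WT samples. It measured 3.30 and 3.68 FPKM for FAK-R454, 3.95, 3.86 and 3.88 for β-catenin ΔGSK and 3.68, 4.25 and 3.67 for KMF samples. Every β-catenin ΔGSK and KMF sample lay above every FAK KO and FAK-WT sample. Bcl2 was 0.60 higher in β-catenin ΔGSK than in FAK KO cells (SE 0.12, adjusted p = 0.00214), and 0.59 higher in KMF (SE 0.12, adjusted p = 0.00369). It was also 0.42 higher in β-catenin ΔGSK than in FAK-WT cells (adjusted p = 0.00468). The median tested gene of chromosome 1 moved by -0.09 between β-catenin ΔGSK and FAK KO cells and by 0.19 between KMF and FAK KO cells. In FAK-R454 cells both samples exceeded all FAK KO samples, by 0.45 (95% interval 0.14 to 0.76), which missed the threshold (adjusted p = 0.0523). It passed in 7 of 14 alternatives (adjusted p between 0.0141 and 0.292 over all of them). From the highest mean to the lowest the order was β-catenin ΔGSK, KMF, FAK-R454, FAK-WT and FAK KO, with no neighbours called against each other.

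Of the effectors, Bax (chr7:45461695-45466898) was the most abundant of the 10 genes, at 81.5 to 135 FPKM. It measured 100, 120 and 111 FPKM in FAK KO samples and 121, 131 and 135 in β-catenin ΔGSK samples, which did not overlap. Bax was 0.23 higher in β-catenin ΔGSK cells (SE 0.08, adjusted p = 0.0345), and the call was lost without any one of FAK KO samples 1 and 3 and β-catenin ΔGSK samples 2 and 3 (adjusted p between 0.0819 and 0.107), with low genes kept or without the trend (0.0626 and 0.0636). FAK-WT samples measured 122, 127 and 123 FPKM and FAK-R454 samples 115 and 111. KMF samples, at 100, 102 and 81.5 FPKM, included the lowest value, and line means fell in the order β-catenin ΔGSK, FAK-WT, FAK-R454, FAK KO and KMF, with no call between neighbours. Bax was 0.46 higher in β-catenin ΔGSK than in KMF cells (adjusted p = 0.00354) and 0.40 higher in FAK-WT than in KMF cells (adjusted p = 0.0115).

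Bak1 (chr17:27019810-27029009), the other pore-forming effector, was much less abundant. FAK KO samples measured 4.52, 5.70 and 4.74 FPKM, against 8.43, 7.60 and 8.08 in FAK-WT and 7.10 and 6.997 in FAK-R454 samples. KMF samples measured 7.54, 8.04 and 7.69 FPKM and β-catenin ΔGSK samples 8.55, 12.1 and 10.2. Every sample of the other lines exceeded every FAK KO sample. The difference from FAK KO was 0.68 in FAK-WT (SE 0.10, adjusted p = 0.00169), 0.50 in FAK-R454 (SE 0.11, adjusted p = 0.0188), 1.02 in β-catenin ΔGSK (SE 0.14, adjusted p = 3.14e-04) and 0.63 in KMF cells (SE 0.10, adjusted p = 9.01e-04). These 4 comparisons share the same FAK KO samples. The tested genes of chromosome 17 had medians of 0.16, 0.04, -0.03 and 0.21 in the same comparisons, and the 6 tested genes nearest to Bak1 medians of 0.35, 0.12, 0.022 and 0.31, with 4 of 6 called higher in FAK-WT and in KMF cells. The FAK-R454 call was lost without FAK KO sample 3 (adjusted p = 0.0666) or either FAK-R454 sample (0.153 and 0.117), and with all low genes kept (0.0582). Above FAK KO, the order rose from FAK-R454 to KMF and FAK-WT, with no call between those neighbours (adjusted p = 0.126 and 0.571). β-Catenin ΔGSK cells came last, 0.34 above FAK-WT (adjusted p = 0.0490), a call lost in 9 of 16 alternatives, among them those without any one FAK-WT sample or β-catenin ΔGSK sample 2 or 3 (0.21 to 0.37, adjusted p between 0.0685 and 0.157). Bak1 took up 4.32% ± 0.23 (SD, n = 3) of the summed FPKM of both effectors in FAK KO and 7.34% ± 0.97 (SD, n = 3) in β-catenin ΔGSK cells.

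Among the BH3-only genes, Bcl2l11 (chr2:128126038-128162547, plus strand), whose product BIM binds all the guardians and can activate BAX and BAK, showed the largest difference of the 10 genes. It measured 5.43, 5.58 and 5.86 FPKM in KMF, 6.93, 6.18 and 6.53 in FAK KO, and 5.97, 6.14 and 6.65 in FAK-WT samples. FAK-R454 samples measured 6.50 and 6.76, and β-catenin ΔGSK samples 19.2, 18.4 and 21.0. The lowest β-catenin ΔGSK sample thus lay far above the highest sample of any other line. The difference was 1.56 from FAK KO (SE 0.08, adjusted p = 1.10e-06), 1.63 from FAK-WT (adjusted p = 1.75e-06), 1.54 from FAK-R454 (adjusted p = 4.86e-06) and 1.78 from KMF cells (adjusted p = 3.02e-07). It held in every alternative run, with values from 1.45 to 1.65 against FAK KO. The gene was covered by 784 to 3118 fragments per sample. The median tested gene of chromosome 2 moved by -0.05 between β-catenin ΔGSK and FAK KO cells, and the 6 nearest tested genes had a median of -0.08, from -1.13 to 0.71. FAK-WT and FAK-R454 cells were not called against FAK KO, with intervals from -0.25 to 0.12 and from -0.18 to 0.22. Bcl2l11 was 0.21 lower in KMF than in FAK KO cells (log2 fold change -0.21, SE 0.08, adjusted p = 0.0468), a call lost in 8 of 16 alternatives, among them those without KMF sample 1 or 2 or FAK KO sample 1 or 3 (adjusted p between 0.118 and 0.151).

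Pmaip1 (chr18:66458604-66465550), whose product NOXA binds MCL1, was the gene in which the lines spread most after Bcl2l11. KMF samples measured 7.17, 5.89 and 7.30 FPKM, FAK KO samples 4.49, 3.97 and 4.16, and β-catenin ΔGSK samples 4.69, 4.18 and 3.27. FAK-WT samples measured 2.85, 2.83 and 2.37 and FAK-R454 samples 2.45 and 2.49. KMF samples lay above all others, FAK-WT and FAK-R454 samples below all others, and FAK KO overlapped β-catenin ΔGSK. Against FAK KO the difference was 0.67 in KMF (SE 0.10, adjusted p = 8.67e-04), -0.63 in FAK-WT (SE 0.11, adjusted p = 0.00323) and, for FAK-R454, -0.74 (SE 0.10, adjusted p = 0.00264). Against KMF it was -1.30 in FAK-WT (adjusted p = 1.88e-04) and, for FAK-R454, -1.41 (adjusted p = 1.97e-04). FAK-WT and FAK-R454 were not called against each other (0.11, 95% interval -0.17 to 0.39), while β-catenin ΔGSK lay 0.57 above FAK-WT (adjusted p = 0.0127). The tested genes of chromosome 18 had a median of -0.38 for KMF, -0.36 for FAK-WT, -0.14 for FAK-R454 and -0.38 for β-catenin ΔGSK cells against FAK KO. The 6 tested genes nearest to Pmaip1 had medians of -0.56, -0.42, -0.21 and -0.53 in that order of lines, with 5, 3, 2 and 4 of them called lower. With each chromosome centred, the KMF difference was 1.117 (adjusted p = 2.09e-05), the FAK-WT difference -0.32 (adjusted p = 0.0510), and that of β-catenin ΔGSK cells turned from -0.07 (adjusted p = 0.684) to 0.42 (adjusted p = 0.00872).

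Bad (chr19:6941861-6951898), whose product binds BCL2 and BCL-XL and is silenced by survival kinases, was the most abundant BH3-only gene at 42.2 to 61.9 FPKM. KMF samples measured 44.2, 46.1 and 42.2 FPKM and FAK KO samples 51.5, 57.0 and 55.1. FAK-WT samples measured 61.9, 60.4 and 60.03, FAK-R454 samples 59.4 and 58.0, and β-catenin ΔGSK samples 50.7, 55.05 and 53.7. KMF overlapped no other line, and Bad was lower there than in FAK KO cells (log2 fold change -0.30, SE 0.07, adjusted p = 0.00508). The chromosome 19 median was -0.26 in that comparison, and with chromosomes centred the difference was -0.05 (adjusted p = 0.543). Line means rose from 44.1 FPKM in KMF through 53.2 in β-catenin ΔGSK, 54.5 in FAK KO and 58.7 in FAK-R454 to 60.8 in FAK-WT cells, and of the neighbours in that order KMF and β-catenin ΔGSK were called apart (0.27, adjusted p = 0.00814), a call lost with chromosomes centred (0.082, adjusted p = 0.310). Bad overlaps Gpr137 on the other strand, at 24.0 to 44.4 FPKM, and the library kit kept no strand, so reads in the overlap cannot be assigned.

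Bid (chr6:120891930-120916853), which links death receptors to mitochondria when cut by caspase-8, was low and even, at 3.41 to 4.71 FPKM. KMF samples measured 3.51, 3.75 and 4.11 FPKM, FAK KO samples 4.41, 4.48 and 4.69, and FAK-WT samples 4.68, 4.55 and 4.71. FAK-R454 samples measured 4.07 and 3.41 and β-catenin ΔGSK samples 3.95, 3.82 and 3.95. FAK KO and FAK-WT samples lay above all others, and Bid was lower in KMF than in FAK KO cells (log2 fold change -0.25, SE 0.09, adjusted p = 0.0423), while chromosome 6 had a median of -0.34. Centring chromosomes turned the value to 0.0495 (adjusted p = 0.708), and the call was also lost in 9 of 15 alternatives, among them those without KMF sample 1 or 2 or any FAK KO sample (adjusted p between 0.0609 and 0.158). Bid was also 0.29 higher in FAK-WT than in KMF cells (adjusted p = 0.0239) and lower in β-catenin ΔGSK than in FAK-WT cells (-0.24, adjusted p = 0.0357). The former call was lost in 5 of 15 alternatives, with chromosomes centred (0.18, adjusted p = 0.157) and without FAK-WT or KMF sample 1 or 2 (adjusted p between 0.0634 and 0.0846). The latter was lost in 9 of 15, among them those without any one FAK-WT sample or β-catenin ΔGSK sample 2 or 3 (adjusted p between 0.0691 and 0.113). Bid overlaps Bcl2l13, at 8.48 to 13.4 FPKM, on the other strand.

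Bbc3 (chr7:16309616-16318205), whose product PUMA binds all the guardians, was not called against FAK KO in any line with all samples kept and no block for sample number. It measured 15.7, 21.7 and 19.7 FPKM in FAK KO, 17.9, 19.1 and 20.2 in FAK-WT and 18.4 and 20.05 in FAK-R454 samples. β-Catenin ΔGSK samples measured 20.7, 21.95 and 23.5 and KMF samples 26.2, 26.4 and 16.8. KMF sample 3 stood apart from the other two, and FAK KO samples spread widely. The intervals of the difference from FAK KO ran from -0.25 to 0.28 in FAK-WT, -0.27 to 0.32 in FAK-R454, -0.04 to 0.49 in β-catenin ΔGSK and -0.15 to 0.68 in KMF cells. Without KMF sample 3 the KMF difference was 0.48 (adjusted p = 0.0122), and without FAK KO sample 2 that of β-catenin ΔGSK was 0.32 (adjusted p = 0.0370).

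Counted by comparison, the 10 genes were all tested in each. In FAK-WT against FAK KO cells, 1 gene (Bak1) was higher and 1 (Pmaip1) lower, or 2 of 10, while 40.8% of all 11841 tested genes were called. In FAK-R454 against FAK KO cells Bak1 was again higher and Pmaip1 lower, 2 of 10, while 19.7% of all genes were called. In β-catenin ΔGSK against FAK KO cells, 4 of 10 (Bcl2, Bax, Bak1 and Bcl2l11) were higher, while 58.1% of all genes were called and 23.7% were called higher. None was called lower by limma in this fit or by limma-voom, and 1 (Bid, -0.21) was lower at an unadjusted p under 0.05 and called by limma without the trend (adjusted p = 0.0301) or in 1 fit of all 5 lines (adjusted p = 0.0436). At 2-fold, 2 genes, Bcl2l11 and Bak1, were called higher in this comparison, where 5.13% of all genes were higher and 12.1% were called in either direction at 2-fold. In KMF against FAK KO cells, 4 (Bcl2, Mcl1, Bak1 and Pmaip1) were higher and 4 (Bcl2l1, Bcl2l11, Bid and Bad) lower, while 51.8% of all genes were called. At 2-fold no member was called in FAK-WT, FAK-R454 or KMF cells, where 4.62%, 2.74% and 8.01% of all genes were. Samples of the lines did not overlap for 5, 6, 5 and 8 of the 10 genes in these 4 comparisons, and for 56.1%, 55.1%, 64.2% and 60.8% of all genes. The median difference of the 10 genes was 0.03, 0.02, 0.09 and 0.02, and that of all genes -0.08, -0.03, -0.09 and -0.05. Counted in either direction, the members called were thus near or below the share over all genes in the 3 lines made from FAK KO cells and above it in KMF cells. In FAK-R454 cells without 1 FAK KO sample, that share ran from 9.97%, with 1 member called, to 37.1%, with 3 called. With chromosomes centred, 5 members and 42.0% of all genes were called in KMF cells, and with median-of-ratios scaling 4 members and 37.5% of all genes in FAK-WT cells. The members called higher in β-catenin ΔGSK cells and those called there at 2-fold were above their shares, and none was called at 2-fold in KMF cells.

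Against KMF cells, 6 of 10 genes were called for FAK-WT (41.6% of all genes), 5 for FAK-R454 (43.6%) and 6 for β-catenin ΔGSK (56.9%). At 2-fold, Pmaip1 was the 1 gene called in FAK-WT and in FAK-R454, where 5.93% and 6.77% of all genes were, and Bcl2l11 the 1 gene in β-catenin ΔGSK, where 13.1% were. Between β-catenin ΔGSK and FAK-WT cells 6 of 10 were called (50.8% of all genes), and between β-catenin ΔGSK and FAK-R454 cells 4 (49.0%). Bcl2l11 was the 1 gene called at 2-fold in each, where 11.6% and 11.4% of all genes were.

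**Figure D2:**
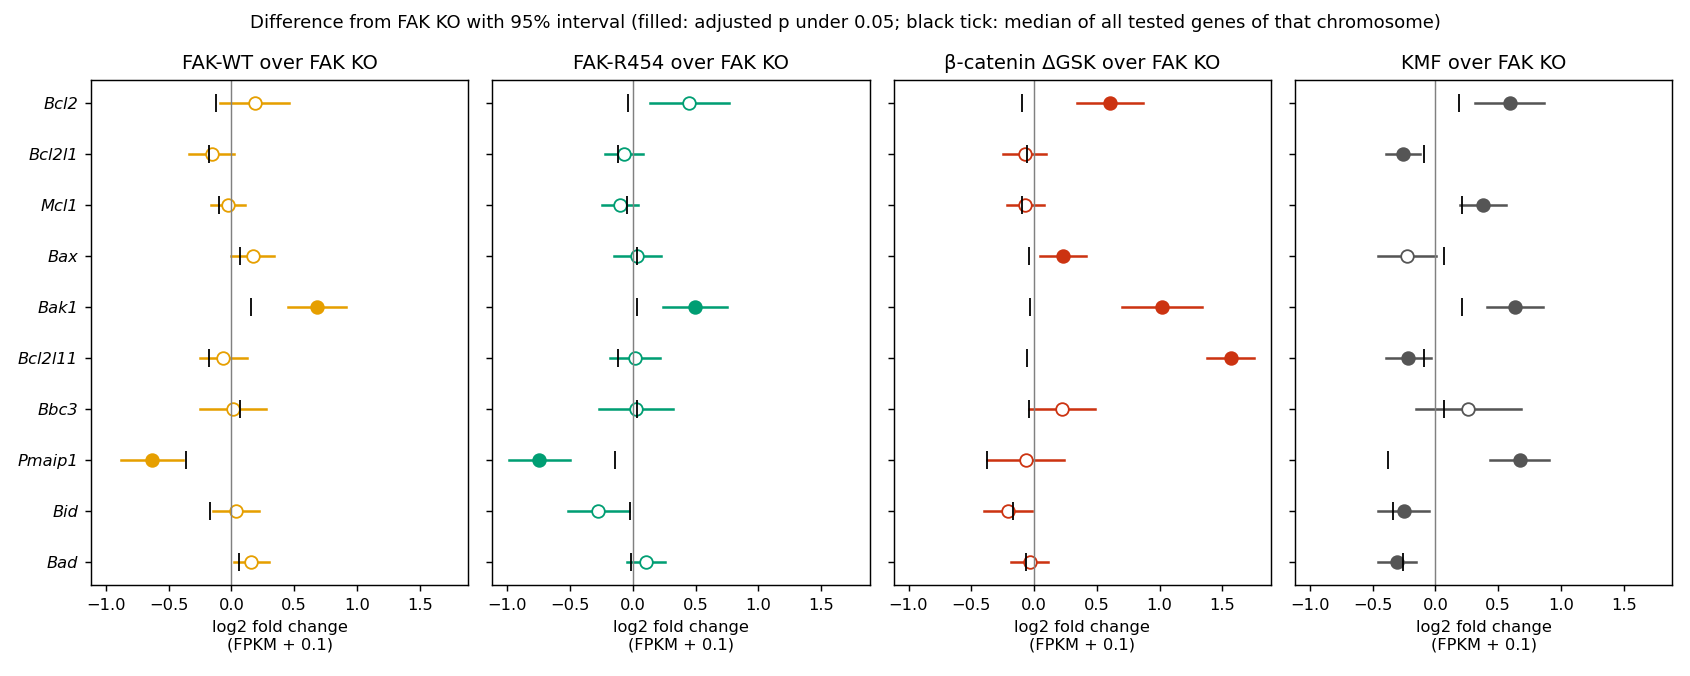
Log2 fold change (horizontal axes) of each gene against FAK KO in 4 lines, as points with 95% intervals, filled where the adjusted p is under 0.05, with a black tick at the median of all tested genes of the gene's chromosome. Bcl2l11 stands at 1.56 in β-catenin ΔGSK and near 0 in FAK-WT and FAK-R454 cells, Bak1 lies right of its tick in all 4 panels, and Pmaip1 lies left of 0 in FAK-WT and FAK-R454 and right of it in KMF cells.

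Wild-type and kinase-inactive FAK were compared directly to ask which levels differed with FAK kinase activity. None of the 10 genes was called by limma in this fit or by limma-voom, and 4 had an unadjusted p under 0.05. Of all genes, 7.82% were called at the adjusted threshold, and from 1.33% to 28.1% without 1 FAK-WT sample. Dropping 1 FAK-R454 sample leaves 1 in that line, and far fewer of all genes were then called, so few calls could be made here. The 4 were Bid, at 0.31 (95% interval 0.08 to 0.54), Bax, at 0.13 (0.02 to 0.25), Bak1, at 0.19 (0.02 to 0.35), and Bcl2, at -0.26 (-0.49 to -0.04), as FAK-WT over FAK-R454. Samples of the 2 lines did not overlap for 6 of the 10 genes, against 48.5% of all genes. Without FAK-WT sample 3, Bax was called (0.14, adjusted p = 0.0308), where 28.1% of all genes were. With sample number as a block Bax and Bid were called (0.14 and 0.30, adjusted p = 0.0317 and 0.0452), where 28.8% of all genes were. FAK-R454 has no sample 3 here, so the block also takes FAK-WT sample 3 out of the difference. With 2 FAK-R454 samples, intervals for the other 6 genes left differences of up to 0.39 in size.

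Summed by role, the 3 anti-apoptotic genes gave 138 ± 9.3 FPKM (SD, n = 3) for KMF, 128 ± 4.6 for FAK KO, 121 ± 3.2 for FAK-WT, 121 ± 0.43 (n = 2) for FAK-R454 and 123 ± 2.9 for β-catenin ΔGSK cells. The effectors gave 102 ± 11.5 FPKM for KMF, 115 ± 10.3 for FAK KO, 132 ± 2.2 for FAK-WT, 120 ± 2.3 for FAK-R454 and 140 ± 8.5 for β-catenin ΔGSK cells. The BH3-only sum averaged 83.5 FPKM for KMF, 88.9 for FAK KO, 93.5 for FAK-WT, 90.8 for FAK-R454 and 103 for β-catenin ΔGSK cells. With Bmf, a BH3-only gene added after its levels were seen, it averaged 104 FPKM in FAK KO cells and 112 or 113 FPKM in every other line, so that β-catenin ΔGSK no longer stood highest nor KMF lowest. The anti-apoptotic sum was highest in KMF, where the effector sum was lowest. With Bok, a further effector-type gene added after its levels were seen, the effector sum was instead highest in KMF cells, at 463 ± 17.9 FPKM, and lowest in β-catenin ΔGSK cells, at 245 ± 14.5. The anti-apoptotic sum made up 42.7% of the summed FPKM of the 10 genes for KMF, 38.5% for FAK KO, 36.5% for FAK-R454, 34.9% for FAK-WT and 33.7% for β-catenin ΔGSK cells, from samples of 42.3% to 43.6% for KMF and 32.8% to 34.8% for β-catenin ΔGSK cells. With Bok in the total the order turned, and the share was 26.2% ± 1.1 (SD, n = 3) for β-catenin ΔGSK, 25.8% ± 1.0 for FAK KO, 22.2% ± 0.20 (n = 2) for FAK-R454, 20.2% ± 1.4 for KMF and 20.1% ± 1.7 for FAK-WT cells. The anti-apoptotic sum rests mainly on Mcl1 and Bcl2l1, the effector sum on Bax and the BH3-only sum on Bad. Bcl2l11 took up 19.0% ± 1.1 (SD, n = 3) of the BH3-only sum in β-catenin ΔGSK cells and between 6.69% and 7.40% on average in the other lines. The ratio of Bcl2l11 to Bcl2 levels was 5.02 ± 0.35 for β-catenin ΔGSK, 2.59 ± 0.21 for FAK KO, 2.16 ± 0.09 for FAK-WT, 1.90 ± 0.09 for FAK-R454 and 1.46 ± 0.14 for KMF cells. The ratio thus separated β-catenin ΔGSK from every other line although both genes were higher there than in FAK KO cells.

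**Figure D3:**
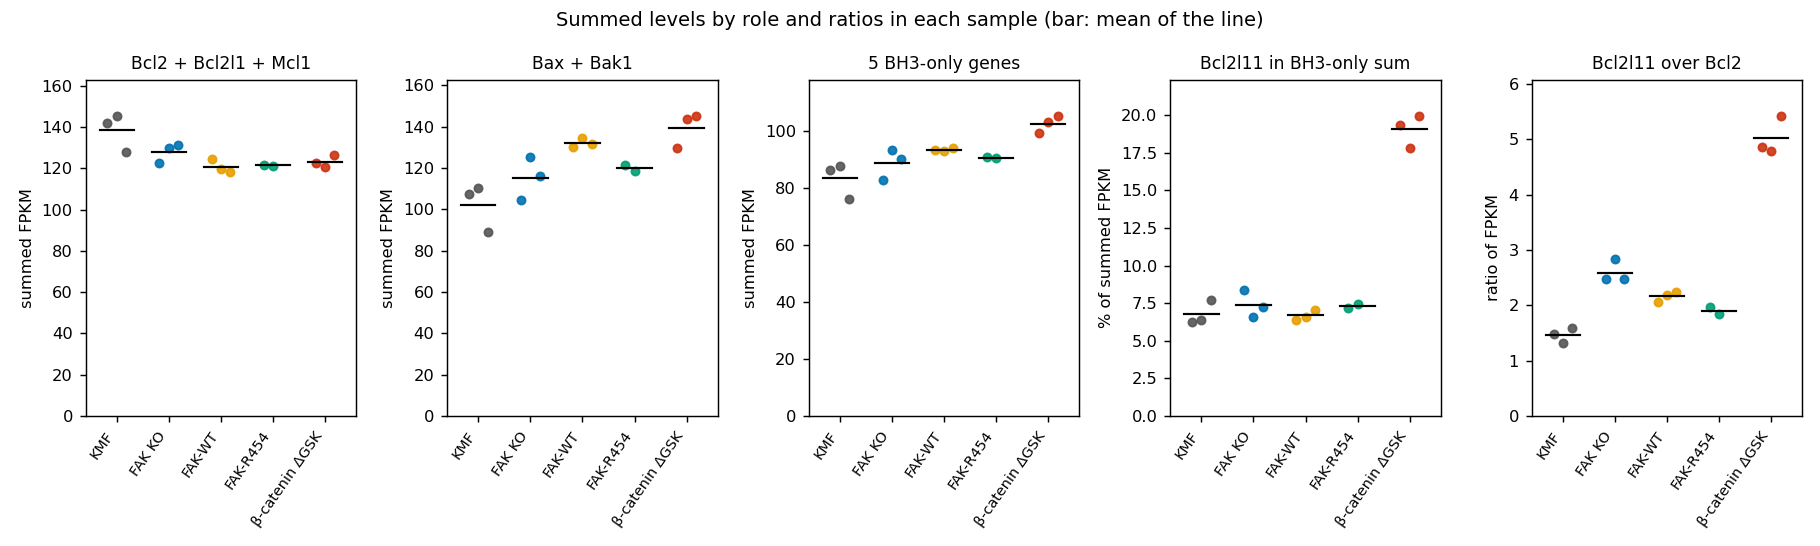
Summed FPKM of the 3 anti-apoptotic, 2 effector and 5 BH3-only genes, the share of Bcl2l11 in the BH3-only sum (%) and the ratio of Bcl2l11 to Bcl2 FPKM, per sample (points) and line mean (bars), all axes from 0. The Bcl2l11 share lies between 17.8% and 19.9% in β-catenin ΔGSK samples and at most at 8.35% elsewhere.

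Among 13 other BCL2 family genes, 5 passed the filter on low values, and Bcl2a1a, Bcl2a1b and Bcl2a1d were listed at 0 in every line. In β-catenin ΔGSK against FAK KO cells, 2 of the 5 were lower and 1 higher, against 34.4% and 23.7% of all genes. Bok, a BAX-like effector, averaged 164 ± 12 FPKM (SD, n = 3) in FAK KO and 106 ± 11 in β-catenin ΔGSK cells, a difference of -0.64 (adjusted p = 3.61e-04). It averaged 256 ± 41.9 FPKM in FAK-WT, 215 ± 4.1 (n = 2) in FAK-R454 and 360 ± 28 in KMF cells, and was higher than FAK KO in each, by 0.63, 0.39 and 1.14 (adjusted p = 0.00395, 0.00909 and 1.34e-05). Bok was thus the most abundant effector-type mRNA in 4 of the 5 lines, and Bax in β-catenin ΔGSK cells. Bmf, a BH3-only gene linked to loss of anchorage, averaged 15.4 FPKM for FAK KO, 8.89 for β-catenin ΔGSK, 20.0 for FAK-WT, 22.3 for FAK-R454 and 28.7 for KMF cells. It was lower in β-catenin ΔGSK (-0.79, adjusted p = 4.76e-05) and 0.36, 0.53 and 0.88 higher in the other 3 lines (adjusted p = 0.0246, 0.00260 and 2.89e-04). In β-catenin ΔGSK cells Bmf and Bok were thus lower and Bcl2l11 higher than in FAK KO cells. Bcl2l2 (BCL-W), a further guardian, was lower in FAK-WT (-0.31, adjusted p = 0.0121) and KMF cells (-0.38, adjusted p = 0.00798), at 12.2 and 11.7 FPKM against 15.2 in FAK KO, and the FAK-WT call was lost with chromosomes centred (-0.21, adjusted p = 0.0592).

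Downstream of the mitochondria, 5 of 12 effector genes of the list were higher and 4 lower in β-catenin ΔGSK than in FAK KO cells, where 23.7% and 34.4% of all genes were. Aifm1 and Endog, whose products act on chromatin after release from mitochondria, rose from 34.9 to 75.0 FPKM and from 10.2 to 21.7 FPKM (1.10 and 1.08, adjusted p = 4.11e-06 and 4.13e-05). In FAK-WT, FAK-R454 and KMF cells 5, 4 and 5 of the 12 were lower, against 25.2%, 9.89% and 28.7% of all genes, among them Casp6 (-0.61, -0.43 and -0.63) and Cycs, cytochrome c (-0.47, -0.37 and -0.60). The list's median was -0.17, -0.07, 0.06 and -0.15 in FAK-WT, FAK-R454, β-catenin ΔGSK and KMF cells, in that order. Apaf1, which binds cytochrome c to build the apoptosome, was low, at 2.25 FPKM in FAK KO cells, and lower in FAK-WT (-0.60, adjusted p = 0.00723), β-catenin ΔGSK (-0.47, adjusted p = 0.0116) and KMF cells (-0.61, adjusted p = 0.00224). The Cycs call in FAK-WT cells was lost with chromosomes centred (-0.27, adjusted p = 0.0731). With that centring, 6 of the 12 were higher and 2 lower in β-catenin ΔGSK cells, and 3 were lower in FAK-WT cells. Of all genes, 56.1% and 30.1% were then called in either direction.

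Genes known to raise BH3-only transcripts were followed in a list of 8, all tested. In β-catenin ΔGSK cells 4 were higher, where 23.7% of all genes were, including Foxo3, a transcription factor known to act on Bcl2l11, at 15.4 FPKM against 11.0 in FAK KO (0.48, adjusted p = 0.00142), and Myc, at 62.8 against 36.8 FPKM (0.77, adjusted p = 2.13e-05). Foxo1 was lower there (-0.31, adjusted p = 0.0170), a call lost with median-of-ratios scaling (-0.23, adjusted p = 0.0575). In KMF cells 6 of 8 were higher, where 23.1% of all genes were, led by Trib3 and Atf4 of the stress response that can raise Pmaip1, at 13.3 against 5.16 FPKM and 204 against 107 FPKM (1.34 and 0.93, adjusted p = 7.59e-06 and 2.71e-05). In FAK-WT cells, where Pmaip1 was lower, 3 of 8 were higher and 2 lower. Of all genes, 25.2% were lower there and 40.8% were called in either direction. Atf4 and Trib3 were among the higher (0.44 and 0.42), the Atf4 call being lost with chromosomes centred (0.14, adjusted p = 0.147). The lower were Ddit3, of the same stress response, and Foxo3 (-0.22 and -0.23, adjusted p = 0.0324 and 0.0454), and both calls were lost with either other scaling. The list's median was 0.12, 0.08, 0.22 and 0.42 in FAK-WT, FAK-R454, β-catenin ΔGSK and KMF cells, in that order.

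Bax, Bbc3 and Pmaip1 are known p53 targets, and 17 further p53 targets were tested. Of these, 9 were lower and 1 higher in FAK-WT, 10 lower and 1 higher in FAK-R454, 8 lower and 3 higher in β-catenin ΔGSK, and 10 lower and 7 not called in KMF cells. Of all tested genes, 25.2%, 9.89%, 34.4% and 28.7% were called lower in the same 4 comparisons. The list's medians were -0.25, -0.41, -0.26 and -0.27, below those of all genes, and stayed negative with either other scaling. Ccng1 fell from 60.1 FPKM for FAK KO to 37.6 for FAK-WT, 39.2 for FAK-R454 and 31.8 for KMF cells (-0.67, -0.61 and -0.91), and Gdf15 from 34.1 to 21.0 for FAK-R454 and 14.4 for KMF cells. Polk fell from 9.44 FPKM in FAK KO to 5.90 in FAK-WT and 5.74 in KMF cells (-0.66 and -0.69). In β-catenin ΔGSK cells Sesn1 (-1.01) and Perp (-0.72) fell. Beside them, in β-catenin ΔGSK cells Bax was higher while Bbc3 and Pmaip1 were not called, and Pmaip1 was lower in FAK-WT and FAK-R454 cells and higher in KMF cells.

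**Figure D4:**
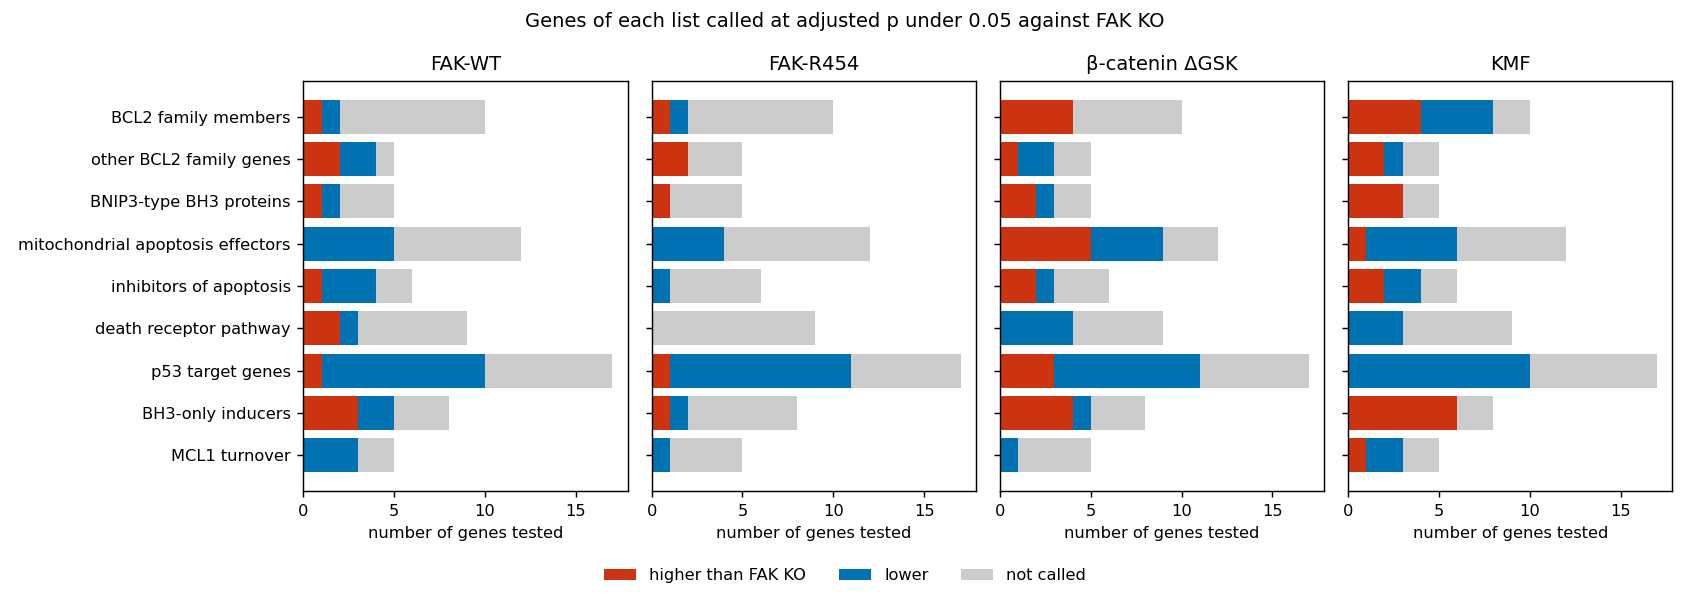
Number of genes tested (horizontal axes) in each list against FAK KO, split into higher, lower and not called at adjusted p under 0.05, for 4 lines. Of the 17 p53 targets 8 to 10 were lower in every panel, and of the 10 BCL2 family genes 2, 2, 4 and 8 were called in FAK-WT, FAK-R454, β-catenin ΔGSK and KMF cells. In that order, 25.2%, 9.89%, 34.4% and 28.7% of all genes were lower, and 40.8%, 19.7%, 58.1% and 51.8% were called in either direction.

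For genes that act on MCL1 protein, 5 of 7 were tested, and Usp9x, whose product removes ubiquitin from MCL1, was lower than FAK KO in all 4 lines. It averaged 20.4 FPKM for FAK KO, 14.4 for FAK-WT, 15.2 for FAK-R454, 8.59 for β-catenin ΔGSK and 12.4 for KMF cells (-0.50, -0.42, -1.24 and -0.72). Fbxw7, part of a ligase for MCL1, was 0.46 higher in KMF cells (adjusted p = 0.00192), where Mcl1 mRNA was also higher. Of 6 tested inhibitors of apoptosis, Birc5 (survivin), a gene of dividing cells, was higher in FAK-WT (0.47), β-catenin ΔGSK (0.92) and KMF cells (0.71), and Xiap lower in FAK-WT (-0.47) and KMF cells (-0.35, and -0.26 with chromosomes centred, where the call was lost at adjusted p = 0.0519). Naip2, of the same family, was lower in FAK-WT, FAK-R454 and KMF cells (-0.52, -0.52 and -0.49). These 3 calls were lost with chromosomes centred (-0.38, -0.45 and -0.31, adjusted p between 0.0568 and 0.0627), and the FAK-R454 call also with median-of-ratios scaling (-0.50, adjusted p = 0.0548). Naip2 was higher in β-catenin ΔGSK cells (0.41, adjusted p = 0.0149). Of 9 tested death receptor genes, 4 were lower in β-catenin ΔGSK cells, where 34.4% of all genes were, including Fas (-0.62) and Cflar, an inhibitor of caspase-8 (-0.46), and 3 in KMF cells, where 28.7% were. Of 5 BNIP3-type genes, Bnip3, a mitochondrial protein gene induced by hypoxia, averaged 6.28 FPKM in FAK KO, 10.02 in FAK-R454, 17.8 in β-catenin ΔGSK and 38.6 ± 14.6 (SD, n = 3) in KMF cells. It was higher in these 3 lines (0.69, 1.49 and 2.58, adjusted p = 0.0484, 7.45e-04 and 8.58e-05), and the FAK-R454 call was lost with chromosomes centred, at a similar size (0.63, adjusted p = 0.0673).

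Across the 14 samples, the genes most like each member by Pearson r of log2 levels were listed from 12255 others, as a description in which samples share their lines. Bcl2l11 was most like Nkain2 (0.993), Jakmip3 (0.990) and Gm2a (0.990), which share the split of β-catenin ΔGSK from the rest. Bak1 was most like Aprt (0.985), Gm10224 (0.957) and Gltscr2 (0.942). Pmaip1 was most like Coq3, Tspan5 and Cyb5b (0.966, 0.966 and 0.962), Mcl1 like Fendrr, Pigm and 2610035F20Rik (0.937, 0.936 and 0.935), and Bcl2 like Atxn1l, Rhou and Dcbld2 (0.910, 0.905 and 0.898). Bcl2l1 was most like Ctnnd1 (0.952), Bax like Abhd8 (0.961), Bbc3 like Irf2bp2 (0.941), Bad like Tmem104 (0.971) and Bid like Gpatch1 (0.852). Ctnnd1 lies on chromosome 2, as Bcl2l1 does. The next matches of Bad, Coro1b and Rom1 (0.969 and 0.962), lie on chromosome 19, as Bad does. The other genes named as matches lie on other chromosomes than their members. Between members, r was lowest for Pmaip1 and Bad (-0.94), with KMF cells highest in Pmaip1 and lowest in Bad, and highest for Mcl1 and Pmaip1 (0.75) and Bax and Bad (0.75).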

How the data were processed

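The authors deposited 1 table of FPKM for 35275 mouse genes in 14 samples, with no filter stated in the table. Their methods name TopHat2 for mapping, whereas the submitters' processing notes list CASAVA 1.8, STAR 2.5, DESeq2 and mm10, so the aligner is uncertain. Gene coordinates are those of GRCm38. The kit (NEBNext Ultra) does not mark strand. FPKM times gene length, divided by the smallest step of each sample, gave whole fragments within 0.01 for 99.9% of values, and these fragments give the depth.

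Taking 2 lines at a time, limma 3.58.1 in R 4.3.3 was fitted to log2(FPKM + 0.1), with a mean-variance trend, over genes with a mean FPKM above 1 in at least 1 of the 2 lines, and p-values were adjusted by Benjamini-Hochberg over all of them. Fold changes on this scale understate changes of low genes. All 10 pairs of lines were compared. Alternatives changed the pseudocount, filter, scaling, fit, call rule and samples. The script was tested on simulated data. The members and gene lists were chosen with earlier results of these data known. Named were the members, Ptk2, Ctnnb1, genes from among the up to 3 called per list and comparison with the largest change, and the genes most like each member (up to 3). Not all of those were named, and Bcl2a1a, Bcl2a1b and Bcl2a1d were named after their values were seen. One such gene is not reported here. Promoter windows are from RefSeq, GRCm38.p6, and were read for 9 members. Motifs were counted on both strands.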

Additional observations from a re-analysis of the deposited data

How the results depend on the processing

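Of 1534 repeats of the 100 differences (10 genes in 10 comparisons), 1348 kept direction and side of the threshold, 91 lost a call, 46 gained one and 49 changed sign. Of the called differences, 1 changed sign, Bid (0.050) in KMF over FAK KO with each chromosome centred. The uncalled ones that changed sign with chromosomes centred were, over FAK KO, Bbc3 (-0.037), Bcl2l1 (0.020) and Bax (-0.027) in FAK-R454, Bad (0.065) and Pmaip1 (0.42) in β-catenin ΔGSK, and Bbc3 (-0.065), Bcl2l11 (0.10), Mcl1 (0.099) and Bcl2l1 (0.013) in FAK-WT. Over KMF they were Bak1 (0.063) and Bcl2 (0.11) in FAK-R454 and Bbc3 (0.062) and Bid (-0.062) in β-catenin ΔGSK, and the others were Bcl2l1 (-0.026) in β-catenin ΔGSK over FAK-WT and Bad (-0.024) in FAK-WT over FAK-R454. With median-of-ratios scaling they were, over FAK KO, Mcl1 (0.046) and Bcl2l11 (0.0072) in FAK-WT and Bad (0.046), Pmaip1 (0.012), Mcl1 (0.013) and Bcl2l1 (0.0068) in β-catenin ΔGSK, and Bbc3 (0.0087) in β-catenin ΔGSK over KMF, Bbc3 (0.033) in FAK-WT over FAK-R454 and Bcl2l1 (0.050) in β-catenin ΔGSK over FAK-R454. Leaving out 1 sample at a time changed the sign of small differences, which ranged over FAK KO from -0.031 to 0.097 for Bax, -0.11 to 0.13 for Bbc3 and -0.020 to 0.062 for Bcl2l11 in FAK-R454, -0.12 to 0.12 for Bbc3 in FAK-WT and -0.18 to 0.074 for Pmaip1 in β-catenin ΔGSK. Over KMF they ranged in β-catenin ΔGSK from -0.26 to 0.068 for Bbc3, -0.022 to 0.081 for Bcl2 and -0.0065 to 0.10 for Bid, and from -0.14 to 0.10 for Bid in FAK-R454. Over FAK-R454 they ranged from -0.072 to 0.049 for Bbc3 in FAK-WT. For β-catenin ΔGSK over FAK-R454 they ranged from -0.067 to 0.049 for Bcl2l1, -0.058 to 0.19 for Bid and -0.0076 to 0.055 for Mcl1.

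The number of members called changed by over 1.5 times as follows. The 2-fold rule gave 0 members in FAK-WT, 0 in FAK-R454, 2 in β-catenin ΔGSK and 0 in KMF over FAK KO, and 1 in each of FAK-WT over KMF, FAK-R454 over KMF, and β-catenin ΔGSK over KMF, FAK-WT and FAK-R454. A mean FPKM above 5, which drops low members from the test, gave 1 in FAK-WT and 1 in FAK-R454 over FAK KO. In these fits 42.5% and 20.8% of all genes were called. Over FAK KO, no filter gave 1 in FAK-R454 (7.08% of all genes) and median-of-ratios scaling gave 4 in FAK-WT (37.5%). Centring chromosomes gave 5 in KMF over FAK KO (42.0%). Over FAK KO, the counts without 1 sample ran from 2 to 4 in FAK-WT (4 without FAK KO sample 2). Without 1 FAK KO sample they ran from 1 to 3 in FAK-R454 (1 without FAK KO sample 3). In FAK-WT over FAK-R454 they ran from 0 to 1 without 1 FAK-WT sample (1 without FAK-WT sample 3). In FAK-R454 over KMF they ran from 3 to 7 without 1 KMF sample (3 without KMF sample 1 or 2). In β-catenin ΔGSK over FAK-WT they ran from 3 to 7 (3 without FAK-WT sample 1 or 2 or β-catenin ΔGSK sample 3). Over FAK-R454 they ran from 3 to 5 without 1 β-catenin ΔGSK sample. Fits that dropped 1 FAK-R454 sample left 1 sample in that line. In comparisons of FAK-R454 with FAK KO, KMF and β-catenin ΔGSK, these fits called fewer members and a smaller share of all genes. The share of all genes called moved beside these counts. In FAK-R454 over KMF it was 57.3% where 7 members were called, without KMF sample 3. It was 32.7% and 37.2% where 3 were, without KMF sample 1 or 2. In β-catenin ΔGSK over FAK-WT it was 53.2% at 7 and 40.9% to 44.6% at 3. In β-catenin ΔGSK over FAK-R454 it was 60.6% at 5. In FAK-WT over FAK KO it was 43.6% at 4 and 23.0% to 38.8% at 2. The causes were not tested.

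Sample numbers recur in each line, but in no comparison did same-numbered samples deviate together with r above 0.1 in every pair, the limit used (r from -0.25 to 0.45), though every r was positive in β-catenin ΔGSK over FAK KO and FAK-WT over KMF. With the replicate number as a block, 2 members (Bax and Bid) were called in FAK-WT over FAK-R454. The other counts stayed within 1.5 times. Bid in FAK-R454 over KMF changed sign at 0.038, the same value as without KMF sample 3. Bax in FAK-WT over FAK-R454 was 0.14 with the block, the same value as without FAK-WT sample 3. FAK-R454 has no sample 3 here, so the block takes sample 3 of the other line out of these differences. The block also gained Bbc3 in β-catenin ΔGSK over FAK KO (0.22, adjusted p = 0.0283, r from 0.076 to 0.45) and over FAK-WT. In FAK-R454 over KMF, Bax and Bbc3 were gained at 0.16 and -0.45, the same values as without KMF sample 3. The block lost Bcl2l11 and Bid in KMF over FAK KO, and Bak1, Bid and Bad in β-catenin ΔGSK over FAK-WT. Bax in β-catenin ΔGSK over FAK-R454 was lost at 0.16, the same value as without β-catenin ΔGSK sample 3. Among the called differences of members, the smallest in size was that of Bcl2l1 in FAK-R454 over KMF (0.19), and Pmaip1 and Bid rest on as few as 180 and 234 fragments.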
